A study of Mus musculus with 46 samples.

Results

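Bone marrow-derived macrophages lacking Arid1a were compared with Arid1a f/f macrophages after 4 hr of LPS. The comparison rests on 4 of the 46 samples in the series, chosen by their labels: 2 libraries of Arid1a knockout cells and 2 libraries of control cells, both at 4 hr. All were mouse macrophages grown from bone marrow in culture, and messenger RNA was read by sequencing. The knockout cells are labelled Arid1a-/-, and the control cells, called WT in the column names, carry the floxed alleles (Arid1a f/f). The same experiment holds 2 control libraries without LPS (0 hr), 2 control libraries at 1 hr and 2 knockout libraries at 1 hr, and all 10 libraries entered 1 fit. Knockout libraries without LPS are absent from this comparison, and a difference already present in resting cells cannot be told apart from a difference in the response to LPS. The labels do not state how the allele was deleted, the amount of LPS, or whether replicates came from separate animals or cultures. The p-values therefore measure only the spread between these libraries, which may be technical.

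SWI/SNF complexes use the energy of ATP to slide or evict nucleosomes, which opens promoters and enhancers to transcription factors. ARID1A is a large DNA-binding subunit of the canonical BAF form of the complex, in which its paralog ARID1B can take the same place, whereas the PBAF form carries ARID2 and PBRM1 in its stead. LPS binds TLR4 on macrophages, which signals through the adaptors MyD88 and TRIF to the NF-kB, AP-1 and IRF3 transcription factors. Some of the genes they switch on need nucleosome remodelling, and others have promoters that are already open.

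Arid1a itself (chr4:133679008-133756769, GRCm38) was listed at 35.2 and 41.9 TPM in the 4 hr controls and at 25.4 and 26.1 TPM in the 4 hr knockout libraries, TPM being a share of each library's total after division by transcript length. The groups did not overlap, and the change on the log2(TPM + 1) scale, on which all changes below are given with their standard error, was -0.56 ± 0.21. It did not pass the test across all genes (adjusted p = 0.0838, limma with Benjamini-Hochberg adjustment) and passed after median scaling (-0.66, adjusted p = 0.0311) and with only the 4 hr libraries in the fit (adjusted p = 0.00226). At 1 hr Arid1a was listed at 18.3 and 17.3 TPM in controls and at 7.17 and 13.2 TPM in knockout libraries. The table sums all exons of a gene and does not show the excised ones, so this is a weak check of the labels.

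Few of the other SWI/SNF genes passed the test. Arid1b (log2 change 0.21, adjusted p = 0.397) and the ATPase gene Smarca4 (0.13, adjusted p = 0.374) did not pass, nor did any of the 3 canonical BAF and 7 PBAF or non-canonical BAF subunits tested. Of 15 ATPase and core subunits 2 rose (13.3%), Smarcc1 (0.52) and Actl6a (0.41), and 2 fell (13.3%), Bcl7b (-0.45) and Bcl7c (-0.82). These shares lay near those of all tested genes, of which 14.1% rose and 10.8% fell. Each of these 4 subunit genes lost the call when knockout replicate 1 was left out (adjusted p = 0.0865, 0.0519, 0.215 and 0.166).

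The 10 libraries held 9290656 to 12045951 reads on exons, at which a floor of 3 reads over 2 kb of transcript is 0.156 to 0.198 TPM; such floors cover counting error only. The 1 hr knockout pair differed more within itself than the other pairs (SD of the log2 values 0.27 against 0.156 to 0.194). Lower RNA per cell and fewer cells of a type cannot be told apart in bulk RNA. Counting ignored the strand, and 47 of the 143 genes named for their change overlap another annotated gene and are less certain, among them Selenop, Mmp12, Cebpb, Hmgcs1 and those marked below. Genes named beyond those with the largest changes were chosen after their values were seen.

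At 4 hr, 25% of the tested genes differed between knockout and control, in both directions and mostly by less than 1 on the log2 scale. Among genes at 10 TPM or more, the largest increases were those of Ifnb1, the gene of interferon-beta, Plau, the gene of the protease urokinase, and Ccnd1, the gene of cyclin D1. The largest decreases were those of the chemokine gene Ccl24, the membrane protein gene Tmem176a and the phosphatase gene Dusp1. In gene lists, 19 of 28 cell cycle genes rose and 20 of 24 cholesterol synthesis genes fell. A gene is said to have risen or fallen where its adjusted p was under 0.05 in limma both on the deposited TPM and on TPM rescaled by a median ratio. By this rule 1666 of 11798 tested genes rose (14.1%) and 1280 fell (10.8%). The deposited TPM alone gave 2057 higher and 1280 lower (61.6% of calls higher), and the rescaled TPM alone gave 1689 and 1826 (48.1% higher), with the median of all genes at 0.054 and -0.015. A change of at least 1 was reached by 264 of the genes that rose and 210 of those that fell, and a change of at least 2 by 11 and 25. The authors' deposited table has 1299 genes higher and 1432 lower in this comparison at an adjusted p under 0.05. Of the 2945 genes called here that it lists, 2943 have the same sign in the authors' deposited table, and 2191 have the same sign and pass there.

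**Figure D1:**
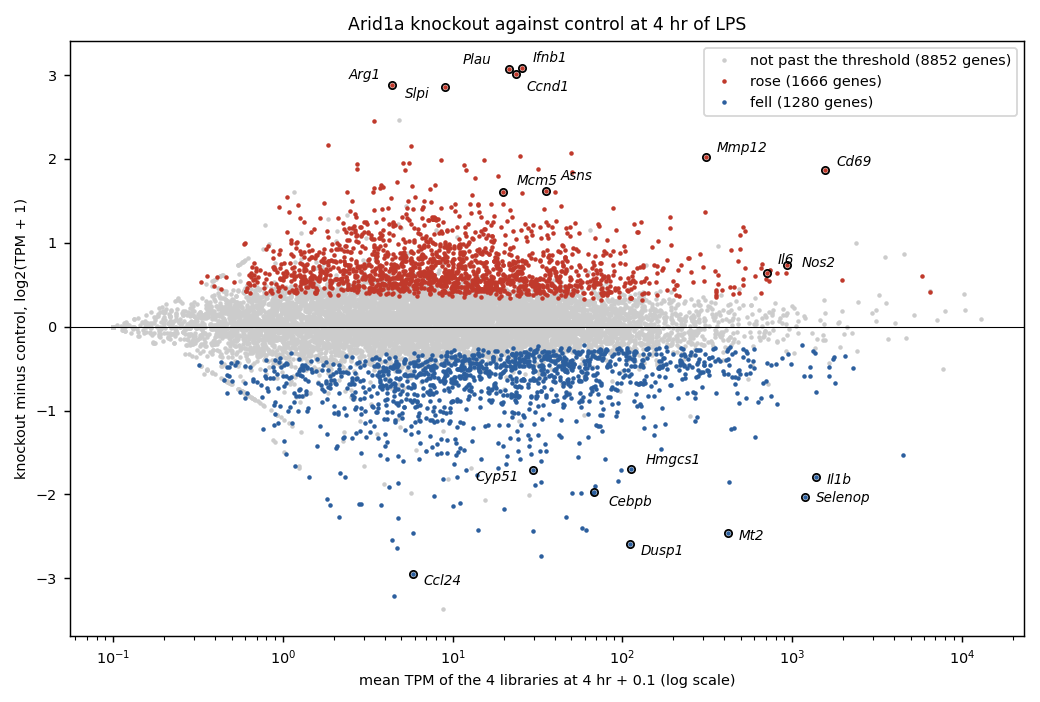
Log2 change at 4 hr, knockout minus control (y axis), of each of the 11798 tested genes against its mean TPM over the 4 libraries at 4 hr (x axis, log scale), with risen genes in red, fallen genes in blue and named genes ringed. Ifnb1 (3.09) and Ccl24 (-2.95) lie near the upper and lower edges, and abundant genes such as Cd69 (1.87) and Selenop (-2.03) lie to the right.

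Ifnb1 (chr4:88522025-88522774), which encodes the main early type I interferon of macrophages, was listed at 5.5 and 3.75 TPM in controls and at 44.4 and 48.1 TPM in the knockout at 4 hr. Both knockout values lay far above both control values, and the log2 change was 3.09 ± 0.19 (adjusted p = 7.02e-06, limma). At 1 hr the gene stood at 49.4 and 45.0 TPM in controls and 46.9 and 34.1 TPM in the knockout, and without LPS at 0.271 and 0 TPM in controls. Control values were thus lower at 4 hr than at 1 hr, while the knockout values at 4 hr lay near those at 1 hr. The difference of the knockout effect between the times was 3.32 ± 0.27 (adjusted p = 0.000113).

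Plau (chr14:20836660-20843385), the gene of urokinase, which activates plasminogen, rose from 3.28 and 4.32 TPM in controls to 40.6 and 37.8 TPM in the knockout (log2 change 3.07 ± 0.32, adjusted p = 0.000667, limma). Ccnd1 (chr7:144929931-144939925), the gene of cyclin D1, which drives cells from G1 toward S phase, rose from 4.46 and 4.33 to 43.1 and 41.8 TPM (3.01 ± 0.11, adjusted p = 1.38e-06). Both genes were also higher in the knockout at 1 hr, by 1.69 and 4.20. Ccnd1 shares its locus with LTO1, which moved the same way (1.77), and is less certain for that reason. Cd69 (chr6:129267325-129275436), an early activation receptor of leukocytes, was abundant in both groups and rose from 692 and 659 to 2420 and 2520 TPM (1.87 ± 0.12, adjusted p = 7.01e-06).

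Other genes among the 15 largest increases encode secreted proteins, receptors and transcription regulators. Slpi, a secreted inhibitor of leukocyte proteases, rose from 1.67 and 1.1 to 14.1 and 18.6 TPM (log2 change 2.86). Mmp12, macrophage elastase, rose from 122 and 121 to 544 and 454 TPM (2.02), and Tnfsf15, a ligand of the TNF family, from 19.5 and 17.2 to 80.4 and 80.6 TPM (2.08). Control and knockout values were far apart in each of these genes, as in Sgk1, a kinase gene (10.6 and 7.84 to 37.7 and 43.7 TPM, 2.04). The list is completed by the hypoxia-inducible factor gene Epas1 (1.99), the transcription factor genes Klf4 (1.99) and Hhex (1.85), the inhibitory receptor gene Cd300lf (1.92), the surface antigen gene Ly6a (1.89), the protease inhibitor gene Serpinb2 (1.87) and Rhoh (1.80), the gene of a GTPase of blood cells. The summed level of 12 granulocyte markers was higher in the knockout at 4 hr (70.2 to 75.2 TPM) than in controls (31.7 to 42.9 TPM). Resting controls summed to 46.2 to 66.6 TPM. At 4 hr 2 of the 12 were listed at 0 in both knockout libraries and 4 in both controls. Only 5 were high enough to be tested, of which 3 rose, while S100a9 (-0.06) and Ngp (0.07) did not pass. One of the 3 that rose, the protease gene Mmp8 (1.23), made up 16.3 and 14.9 TPM of the sum in 4 hr controls. In the 4 hr knockout it made up 39 and 36.4 TPM. Granulocytes also express Slpi, and the part of such cells in these increases was not tested.

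**Figure D2:**
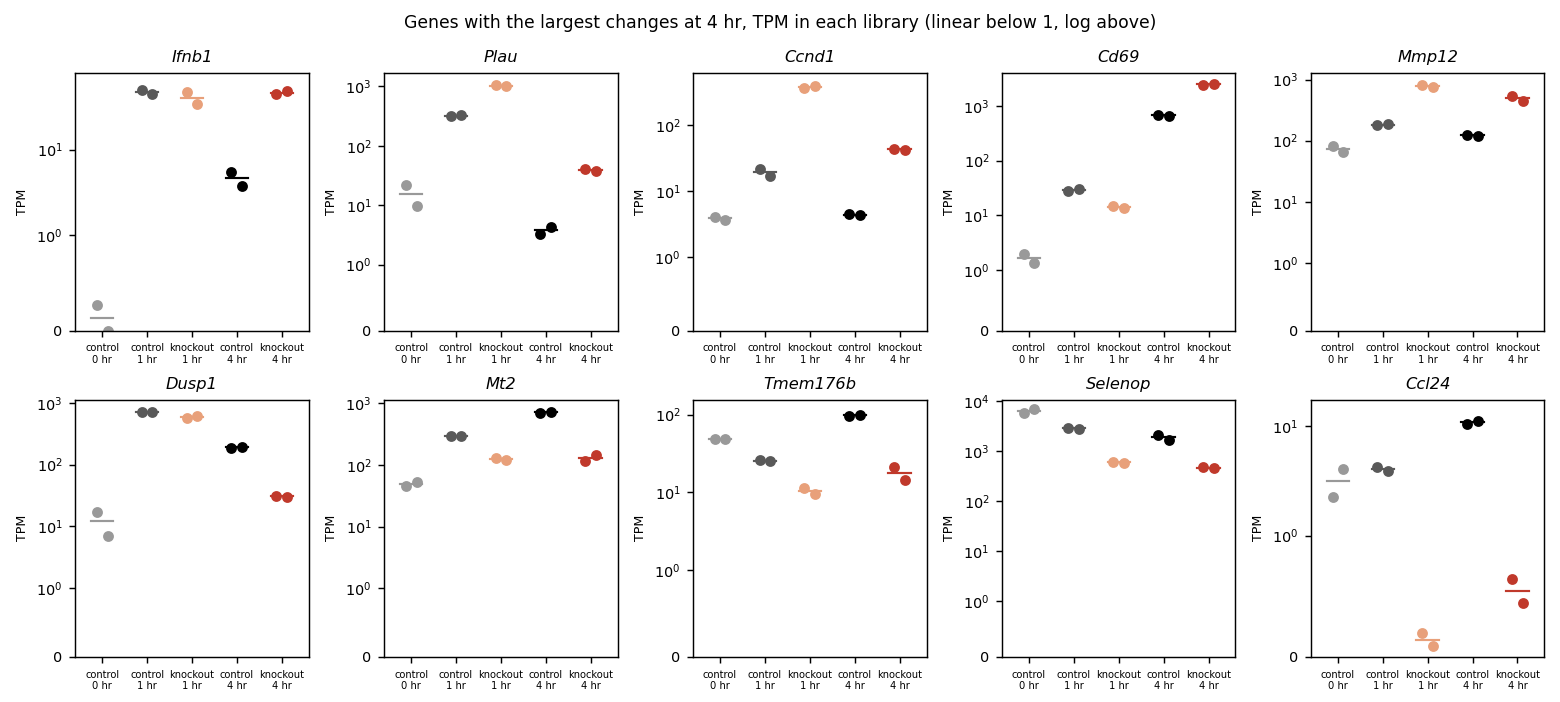
TPM in each of the 10 libraries (y axis, linear below 1 and log above) of 5 genes that rose and 5 that fell at 4 hr, by genotype and time, with a point for each library and a line at the mean of the pair. The 4 hr knockout points of Ifnb1 (44.4 and 48.1 TPM) lie at the height of both groups at 1 hr, and those of Dusp1 (31.2 and 30.0 TPM) lie well below the 4 hr controls (188 and 192 TPM).

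Among the genes that fell, Ccl24 (chr5:135569937-135573049), the gene of a chemokine that attracts eosinophils, went from 10.6 and 11.2 TPM in controls to 0.638 and 0.448 TPM in the knockout (log2 change -2.95 ± 0.19, adjusted p = 7.4e-06, limma). Dusp1 (chr17:26505590-26562128), which encodes a phosphatase that switches off the p38 and JNK kinases, fell from 188 and 192 to 31.2 and 30.0 TPM (-2.60 ± 0.33, adjusted p = 0.0019). Mt2 (chr8:94172664-94173568), the gene of a zinc-binding metallothionein, fell from 689 and 730 to 116 and 142 TPM (-2.46 ± 0.11, adjusted p = 1.38e-06). In none of these 3 genes did a knockout value reach a control value. Dusp1 and Mt2 share their loci with Ergic1 and Gm45774 and are less certain. Tmem176a (55.7 and 60.6 to 9.51 and 6.46 TPM, -2.74) and its neighbour Tmem176b (95.9 and 99.6 to 21.5 and 14.6 TPM, -2.40), a pair of membrane protein genes, fell together, and since they overlap, their reads may be shared.

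Some fallen genes had their highest control values without LPS. Selenop, the gene of a secreted selenium carrier, stood at 5750 and 6820 TPM in resting controls, and at 4 hr it fell from 2140 and 1670 in controls to 480 and 449 TPM in the knockout (log2 change -2.03 ± 0.12, adjusted p = 5.42e-06, limma). Fcrls, an Fc receptor-like gene, fell from 83.4 and 72 to 16.1 and 14.5 TPM (-2.27), and Ms4a4a, a membrane-spanning 4-domain gene, from 57 and 45 to 8.83 and 8.32 TPM (-2.43). Other fallen genes were raised by LPS in controls and lay between resting and control levels in the knockout. Cp, the gene of the copper protein ceruloplasmin, stood at 0.698 and 1.3 TPM in resting controls and fell at 4 hr from 112 and 93.6 to 19.3 and 17.4 TPM (-2.42). Selp, the gene of the adhesion molecule P-selectin, fell from 11 and 9.74 to 1.1 and 1.01 TPM (-2.46), and Slamf1, a leukocyte receptor gene, from 13.5 and 12.3 to 2.24 and 2.64 TPM (-2.02). Eva1b (-2.42), the immediate early gene Ier2 (-2.17), Nudt17 (-2.14) and Pdzk1ip1 (-2.11) complete the 15 largest decreases.

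Cytokine genes differed in both directions. Il6 and Il12b, which encode IL-6 and a subunit shared by IL-12 and IL-23, rose at 4 hr, Il1b, the gene of IL-1 beta, fell, and Tnf was higher in both knockout libraries without passing the test. Tnf was listed at 1600 and 1610 TPM in controls and 3380 and 3010 TPM in the knockout (log2 change 0.99 ± 0.55, adjusted p = 0.25, limma). Its resting controls, at 9.28 and 1.81 TPM, are far apart on the log scale and enter this error, and with only the 4 hr libraries in the fit the adjusted p was 3.22e-05. Il6 rose from 614 and 505 to 842 and 901 TPM (0.65 ± 0.11, adjusted p = 0.00213) but did not pass with a pseudocount of 0.1 (adjusted p = 0.0923). Il12b rose from 91.7 and 90.6 to 135 and 128 TPM (0.52 ± 0.11, adjusted p = 0.00555) but did not pass without knockout replicate 1 (0.49, adjusted p = 0.0508).

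Il1b had the largest decrease of the 10 reference genes, from 2200 and 2100 to 666 and 577 TPM (log2 change -1.79 ± 0.16, adjusted p = 7.28e-05, limma). It shares its locus with the antisense gene Il1bos and is less certain. Il10, the gene of the anti-inflammatory cytokine IL-10, fell from 35.2 and 27.1 to 16 and 16.1 TPM (-0.90 ± 0.26, adjusted p = 0.0324), and the call was lost when any 1 of the 4 libraries was left out (adjusted p from 0.0545 to 0.162). Nos2, the gene of inducible nitric oxide synthase, rose from 704 and 700 to 1210 and 1130 TPM (0.73 ± 0.11, adjusted p = 0.000988) and did not pass with a pseudocount of 0.1 (adjusted p = 0.209). The subunits of IL-27 moved apart, with Il27 rising from 492 and 506 to 795 and 827 TPM (0.70) and Ebi3 falling from 317 and 369 to 222 and 248 TPM (-0.55). The prostaglandin synthase gene Ptgs2 (0.14, adjusted p = 0.572) and the chemokine genes Ccl5 (-0.51, adjusted p = 0.313) and Cxcl10 (0.39, adjusted p = 0.698) did not pass. With only the 4 hr libraries in the fit, Ccl5 and Cxcl10 passed (adjusted p = 0.00822 and 0.00621).

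**Figure D3:**
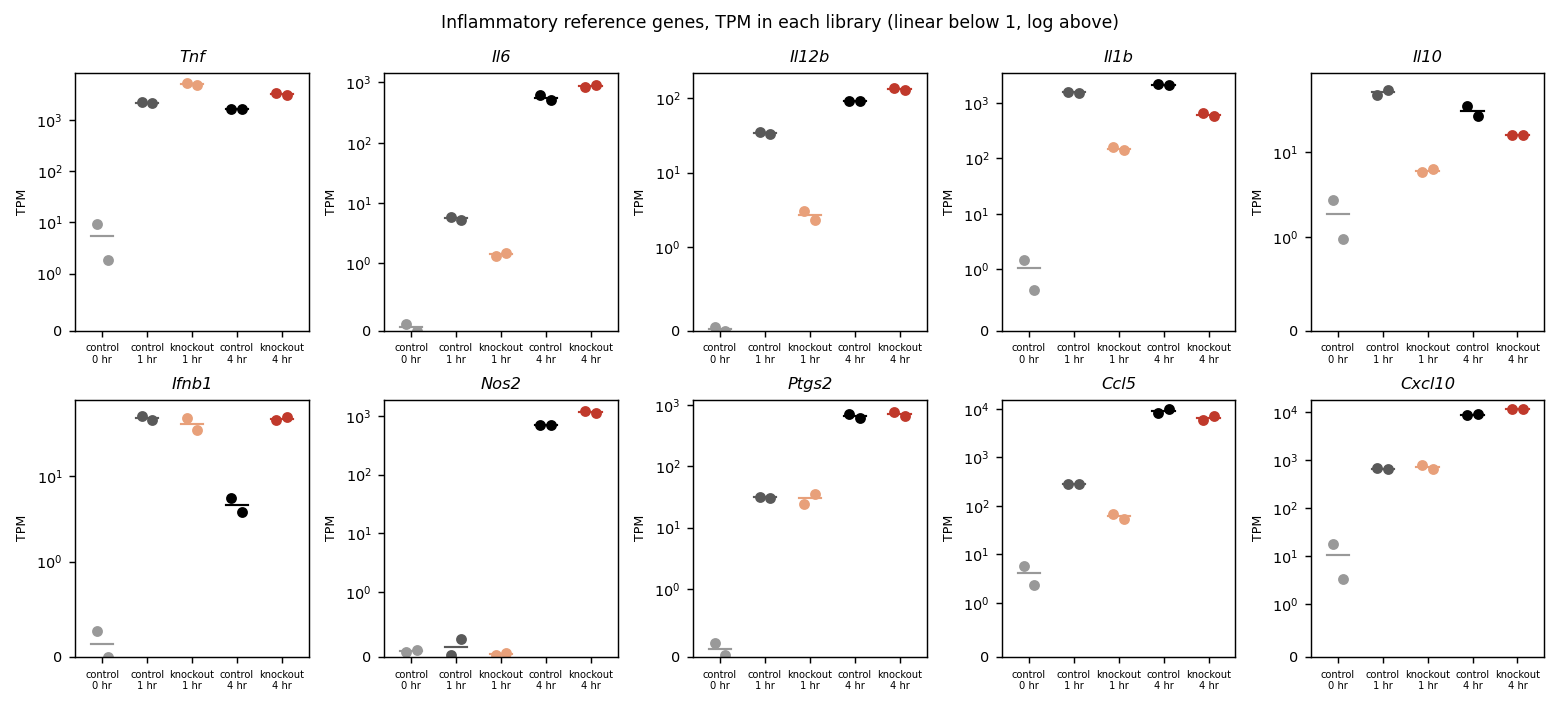
TPM of the 10 inflammatory reference genes in each library (y axis, linear below 1 and log above), by genotype and time, with a point for each library and a line at the mean of the pair. Il12b and Il6 lie lower in the knockout than in controls at 1 hr and higher at 4 hr, whereas Il1b lies lower in the knockout at both times (159 and 143 against 1580 and 1550 TPM at 1 hr).

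Among early response genes that passed the test, more fell than rose. Of 23 immediate early genes, which are switched on without new protein, 1 rose (4.35%) and 9 fell (39.1%). Over all tested genes these shares were 14.1% and 10.8%. The median log2 change was -0.25, against 0.054 over all tested genes. Beside Dusp1 and Ier2, the AP-1 gene Fosl2 fell from 6.91 and 8.06 to 1.81 and 2.02 TPM (-1.54), and the phosphatase gene Dusp2 from 105 and 109 to 44.1 and 45.2 TPM (-1.24). Zfp36, whose protein destabilises cytokine messages, fell from 932 and 1000 to 530 and 556 TPM (-0.83). Of 30 primary NF-kB genes 3 rose (10%), 9 fell (30%) and 18 did not pass (median -0.21). Those that did not pass went both ways. Some abundant ones were higher in the knockout, such as Tnf (0.99), Ccl2 (0.86), Ccl7 (0.83), Cxcl2 (0.675) and Ccl4 (0.43). Others were lower, such as Tnfaip3 (-0.39), Nfkbie (-0.37) and Nfkbia (-0.29). The genes that rose encode chemokines. Ccl3 went from 4610 and 4630 to 7050 and 7040 TPM (0.61), while Cxcl3 (0.77) did not pass with a pseudocount of 0.1 (adjusted p = 0.187), and Cxcl1 (0.91) lost the call when any 1 of the 4 libraries was left out (adjusted p from 0.104 to 0.137). Those that fell include, beside Il1b, the NF-kB inhibitor gene Tnip3 (679 and 600 to 294 and 260 TPM, -1.21), the survival gene Bcl2a1b (-0.91) and Bcl3 (-0.80), a gene of the NF-kB inhibitor family.

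Secondary inflammatory genes depend on new protein synthesis, and of 28 tested 9 rose (32.1%) and 14 fell (50%), with a median of -0.32. Over all tested genes 14.1% rose and 10.8% fell. Saa3, the gene of an acute phase protein, fell from 7080 and 6360 to 2140 and 2540 TPM (log2 change -1.53 ± 0.19, adjusted p = 0.00066, limma). Lcn2, which encodes a protein that withholds iron from bacteria, fell from 147 and 148 to 35.7 and 46 TPM (-1.84 ± 0.21, adjusted p = 0.000203). Il4i1, an amino acid oxidase gene (-1.98), Ptges, the gene of prostaglandin E synthase (-1.39), and Lipg, a lipase gene (-1.21), fell with them. Ch25h, whose product makes an oxysterol, rose from 44 and 44.2 to 78.5 and 110 TPM (1.06), and Csf1, the macrophage growth factor gene, from 122 and 129 to 208 and 185 TPM (0.64). Of 21 chemokine genes 7 rose (33.3%) and 5 fell (23.8%), with a median of 0.43. Ccl12 rose from 608 and 657 to 911 and 1070 TPM (0.65), and Ccl22 fell from 41 and 45 to 17.2 and 12 TPM (-1.51).

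Interferon response genes passed at 4 hr about as often as all tested genes, while Ifnb1 was higher in the knockout. Of 42 tested 4 rose (9.52%), 5 fell (11.9%) and 33 did not pass (median 0.03). Of all tested genes 14.1% rose and 10.8% fell. Oasl1, an antiviral gene, rose from 298 and 329 to 660 and 679 TPM (1.10), and Ifit3b from 63.2 and 59.3 to 111 and 120 TPM (0.90). Ifi205, of the DNA-binding p200 family, fell from 762 and 619 to 364 and 399 TPM (-0.85). Of 17 antigen presentation genes 2 rose (11.8%) and 7 fell (41.2%), with a median of -0.26. The risen genes encode ligands that act on T cells: Cd86 went from 29.9 and 29.8 to 59.3 and 58.5 TPM (0.96), and Cd274, the gene of PD-L1, from 347 and 333 to 664 and 631 TPM (0.93). The fallen genes include the class I gene H2-K1 (1950 and 2020 to 1450 and 1590 TPM, -0.38) and the peptide transporter gene Tap2 (275 and 289 to 189 and 211 TPM, -0.50).

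Genes that sense LPS and process IL-1 were lower in part. Of 30 TLR4 signalling genes 1 rose (3.33%) and 8 fell (26.7%), against 14.1% and 10.8% of all tested genes (median -0.11). The risen gene was Irf5, a transcription factor gene of inflammatory macrophages (212 and 213 to 313 and 303 TPM, 0.53). Cd14, the gene of an LPS co-receptor, fell from 1520 and 1460 to 1040 and 1110 TPM (-0.48), and Ticam1, the gene of the adaptor TRIF, from 25.5 and 26.8 to 18.4 and 15.9 TPM (-0.58). Of 15 inflammasome and cell death genes 1 rose (6.67%) and 9 fell (60%), with a median of -0.36. Nlrp3, the gene of an inflammasome sensor, fell from 307 and 303 to 185 and 167 TPM (-0.79), Il18, the gene of the cytokine it matures beside IL-1 beta, from 126 and 119 to 66.9 and 62.3 TPM (-0.91), and Gsdmd, the gene of a pore-forming protein, from 205 and 196 to 143 and 144 TPM (-0.48).

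Macrophage identity genes had a high summed level in the knockout, though more fell than rose. Of 26 genes 2 rose (7.69%) and 13 fell (50%), against 14.1% and 10.8% of all tested genes (median -0.26). The summed level of the 26 was 19400 to 20600 TPM in the knockout against 21500 to 21800 TPM in controls. This sum depends largely on Lyz2, whose highest value in the 10 libraries was 19000 TPM, against 2440 TPM for C1qb, the next. Lyz2, lysozyme (0.19, adjusted p = 0.0506), and Cd68, a lysosomal membrane protein (0.13, adjusted p = 0.281), did not pass. Cebpb, a transcription factor gene, fell from 95.3 and 123 to 20.7 and 34.9 TPM (-1.97 ± 0.24, adjusted p = 0.000729, limma). Apoe, an apolipoprotein gene, fell from 798 and 924 to 320 and 369 TPM (-1.32), Fcgr2b, the inhibitory Fc receptor gene, from 651 and 581 to 251 and 277 TPM (-1.22), and C1qc, a complement gene, from 1000 and 1140 to 507 and 626 TPM (-0.92). Spi1, the gene of PU.1, fell by 0.68 and Csf1r, the CSF1 receptor gene, by 0.41. Of 14 alternative activation genes 2 rose (14.3%) and 8 fell (57.1%), with a median of -0.72. Il4ra, the IL-4 receptor gene, fell from 111 and 105 to 23.4 and 30.2 TPM (-1.98), whereas Arg1, the arginase gene, rose from 0.18 and 0.327 TPM, near the floor, to 7.06 and 9.62 TPM (2.89 ± 0.22).

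Cholesterol synthesis genes fell together. Of 24 tested 20 fell (83.3%) and 2 rose (8.33%), against 10.8% and 14.1% of all tested genes. The median log2 change was -0.91, against 0.054 over all tested genes. Hmgcs1, the gene of HMG-CoA synthase at the head of the pathway, fell from 177 and 168 to 58.7 and 47.1 TPM (-1.70 ± 0.11, adjusted p = 8.05e-06, limma). Sc5d, a late sterol desaturase gene, fell from 51.8 and 45.2 to 13 and 11.7 TPM (-1.89 ± 0.11, adjusted p = 5.42e-06), and Cyp51, the lanosterol demethylase gene, from 47.2 and 45.3 to 14.1 and 12.7 TPM (-1.71 ± 0.10). Without LPS the controls held 49.2 and 47.7 TPM of Hmgcs1 and 15.5 and 16.5 TPM of Sc5d, so that the 4 hr controls stood above resting controls and the 4 hr knockout close to them. The 2 genes that rose were Ebp (20.2 and 23.2 to 31.8 and 32.8 TPM, 0.56) and Dhcr7 (2.21 and 2.39 to 4.41 and 4.08 TPM, 0.67), both of late steps. Of 15 LXR target genes, many of which carry cholesterol out of the cell, 2 rose (13.3%) and 9 fell (60%), with a median of -0.44. Abca1, a cholesterol exporter gene, fell from 22.3 and 21.4 to 5.57 and 5.9 TPM (-1.76), and Abcg1, another, from 13.5 and 13.4 to 5.7 and 5.63 TPM (-1.12).

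Most cell cycle genes on the list rose. Against shares of 14.1% risen and 10.8% fallen over all tested genes, 19 of 28 rose (67.9%) and none fell (median log2 change 0.86). All 6 genes of the replicative helicase, Mcm2 to Mcm7, were among them (1.26 to 1.87), and Mcm5 rose from 8.27 and 10.3 to 29.8 and 30.2 TPM (1.6 ± 0.11, adjusted p = 1.04e-05, limma). Rrm2, a ribonucleotide reductase gene, rose from 1.4 and 1.93 to 9.51 and 8.97 TPM (1.95), and Pcna, the gene of the replication clamp, from 63.3 and 74.5 to 129 and 141 TPM (0.96). In resting controls Mcm5 stood at 19 and 17 TPM, above the 4 hr controls and below the 4 hr knockout. Among genes of mitosis, Top2a, a topoisomerase gene, went from 24.8 and 24 to 49.1 and 44.9 TPM (0.91), and Aurkb, a mitotic kinase gene, from 6.34 and 7.6 to 12.4 and 12.8 TPM (0.77). Other genes of division did not pass: the proliferation marker gene Mki67 (0.25), the cyclin gene Ccnb2 (-0.16), the mitotic kinase genes Aurka (0.35) and Plk1 (0.43), Cdc20 (-0.12) and Birc5 (0.25). The cyclin gene Ccnb1 (0.37) passed on the deposited TPM but not after median scaling (adjusted p = 0.0695).

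Of 16 integrated stress response genes, many of which supply amino acids, 8 rose (50%) and 2 fell (12.5%), with a median of 0.48. Over all tested genes 14.1% rose and 10.8% fell. Asns, the asparagine synthetase gene, rose from 16.7 and 17.1 to 57.1 and 51 TPM (log2 change 1.62 ± 0.14, adjusted p = 2.93e-05, limma), Slc7a5, an amino acid transporter gene, from 2.98 and 3.35 to 13.1 and 11.7 TPM (1.69), and Shmt2, a folate enzyme gene, from 8.49 and 9.19 to 19.6 and 19.9 TPM (1.08). The messenger RNA of Atf4, the transcription factor of this response, which is controlled mainly by translation, fell from 152 and 153 to 98.4 and 90.9 TPM (-0.68), a call that was lost without control replicate 1, control replicate 2 or knockout replicate 2 (adjusted p from 0.0559 to 0.0724). Of 15 NRF2 target genes 8 rose (53.3%) and none fell (median 0.40). Hmox1, the heme oxygenase gene, rose from 137 and 131 to 228 and 240 TPM (0.80). Of 23 glycolysis and hypoxia genes 10 rose (43.5%) and 4 fell (17.4%), with a median of 0.31. Pkm, the pyruvate kinase gene, rose from 311 and 349 to 703 and 757 TPM (1.14), and Ldha, the lactate dehydrogenase gene, from 300 and 305 to 559 and 584 TPM (0.92). The glucose transporter gene Slc2a1 fell from 75.3 and 75.5 to 38.5 and 38 TPM (-0.96), and the growth factor gene Vegfa from 3.52 and 3.96 to 0.649 and 0.201 TPM (-1.75).

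**Figure D4:**
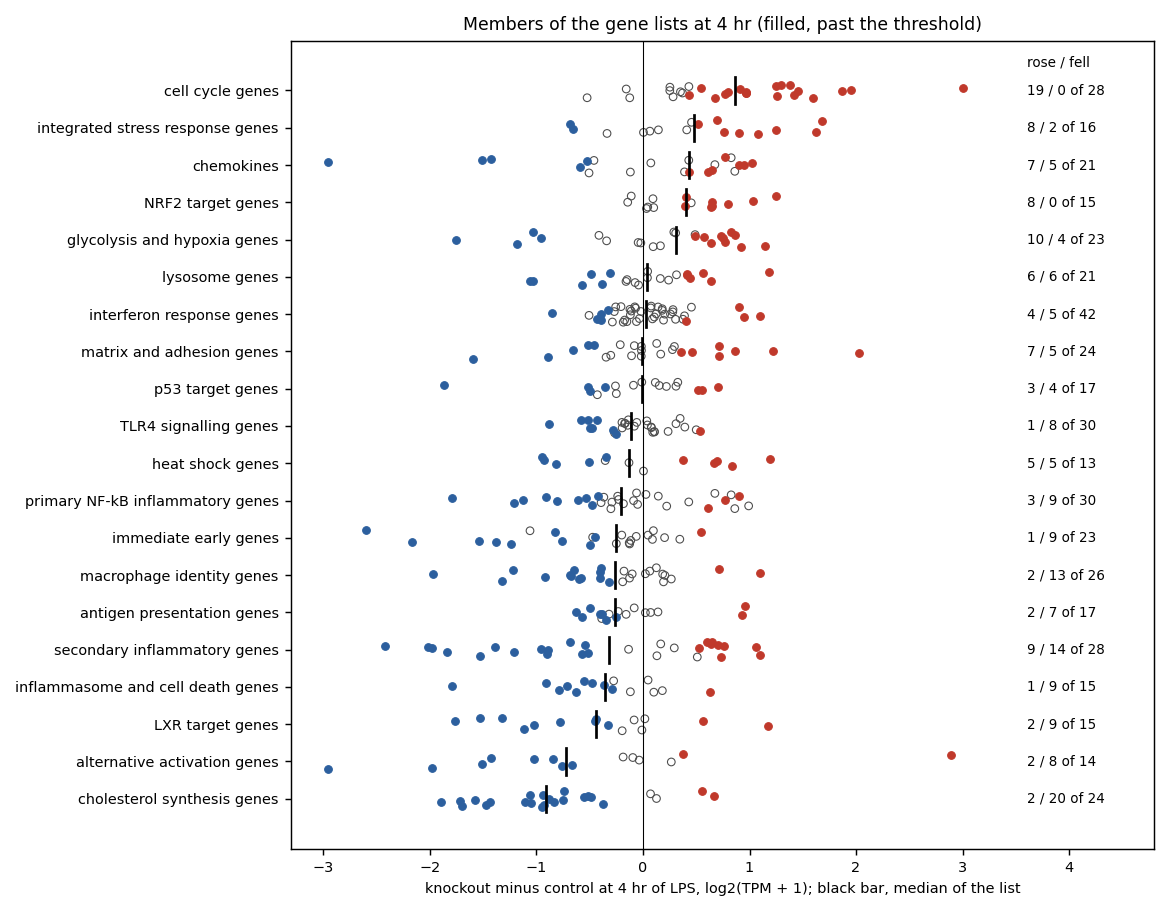
Log2 change at 4 hr, knockout minus control (x axis), of the tested members of 20 gene lists (y axis), filled where risen (red) or fallen (blue) and open where the test was not passed, with a bar at the list's median and the numbers risen and fallen at the right. Cell cycle genes (median 0.86) and cholesterol synthesis genes (median -0.91) lie at the ends.

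Promoters of 4 of these genes are printed to show the letters that a factor known for each group reads: ATF4 for amino acid supply, E2F for replication, SREBP for sterol synthesis and NF-kB for cytokines. Each sequence is the 250 bases before the RefSeq start on GRCm38.p6, read 5′ to 3′ on the gene's strand, with the matched letters in capitals. Both strands were searched, and the motifs were chosen with results of these data known. The Asns promoter (chr6:7693210-7693459, minus strand) holds TGATGNAA, and the Mcm5 promoter (chr8:75109259-75109508, plus strand) holds 2 overlapping matches of TTTNGCGC. The Hmgcs1 promoter (chr13:119690101-119690350, plus strand) holds TCACNCCAC, and the Il6 promoter (chr5:30012864-30013113, plus strand) holds GGANTTTCC.
Asns: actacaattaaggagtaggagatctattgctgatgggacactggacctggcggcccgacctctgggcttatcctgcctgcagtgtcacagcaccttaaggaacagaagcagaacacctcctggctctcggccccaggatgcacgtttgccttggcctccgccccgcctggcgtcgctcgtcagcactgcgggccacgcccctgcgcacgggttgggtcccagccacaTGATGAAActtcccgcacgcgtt
Mcm5: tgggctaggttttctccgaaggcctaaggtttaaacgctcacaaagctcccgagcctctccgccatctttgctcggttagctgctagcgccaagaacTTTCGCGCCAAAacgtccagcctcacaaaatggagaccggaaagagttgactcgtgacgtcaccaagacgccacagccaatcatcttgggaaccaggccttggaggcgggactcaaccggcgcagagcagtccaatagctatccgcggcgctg
Hmgcs1: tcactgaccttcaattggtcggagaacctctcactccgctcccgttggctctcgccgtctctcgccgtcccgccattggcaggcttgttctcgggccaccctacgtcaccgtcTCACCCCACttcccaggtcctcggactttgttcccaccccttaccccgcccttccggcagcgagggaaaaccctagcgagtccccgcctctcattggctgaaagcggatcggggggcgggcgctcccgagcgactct
Il6: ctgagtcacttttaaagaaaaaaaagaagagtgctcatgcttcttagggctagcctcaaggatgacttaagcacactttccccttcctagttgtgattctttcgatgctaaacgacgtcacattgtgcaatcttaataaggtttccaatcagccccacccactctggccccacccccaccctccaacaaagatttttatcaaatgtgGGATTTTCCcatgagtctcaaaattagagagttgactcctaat

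Of 27025 promoters in the RefSeq table, 3.53% hold the ATF4 letters, 1.15% the E2F letters, 1.04% the SREBP letters and 1.05% the NF-kB letters, and among the 9191 tested genes matched by symbol the shares were 2.07%, 2.2%, 0.925% and 1.11%. Of 15 integrated stress response promoters 26.7% held the ATF4 letters (Asns, Slc7a11, Chac1 and Nupr1). Asns and Slc7a11 rose at 4 hr, and Chac1 (0.15) and Nupr1 (-0.34) did not pass. Of 22 cell cycle promoters 13.6% held the E2F letters (Cdk1, Mcm5 and Mcm6), and of 17 cholesterol synthesis promoters 5.88% held the SREBP letters (Hmgcs1). Of 23 primary NF-kB promoters 30.4% held the NF-kB letters. Among these Cxcl1 and Cxcl3 rose at 4 hr, and the others did not pass. Il6, whose promoter is printed, belongs to the secondary inflammatory list. Over all genes that rose the shares, in the order ATF4, E2F, SREBP and NF-kB, were 2.55%, 2.86%, 0.695% and 1.31%, and over all that fell 2.53%, 0.972%, 1.55% and 1.07%. The letters CCAAT, read by the factor NF-Y, were in 34.5% of all promoters, 72.7% of the cell cycle promoters, 88.2% of the cholesterol synthesis promoters and 60% of the integrated stress response promoters. They were in 36.8% of the promoters of tested genes, 39.1% of those that rose and 37.3% of those that fell. A match describes letters and does not show binding.

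Markers of other cell types were checked at 4 hr. The 13 erythroid and mast cell markers summed to at most 0.413 TPM in either group. The 10 lymphocyte markers summed to 1.08 to 1.23 TPM in controls and 0.953 to 0.963 TPM in the knockout, and the 10 dendritic cell markers to 778 to 786 TPM and 647 to 823 TPM. Bst2, which interferon also raises, made up 714 and 705 TPM of the latter sum in controls and 572 and 754 TPM in the knockout. The 10 stromal and endothelial markers summed to 33.5 to 33.6 TPM in controls and 58.4 to 65.2 TPM in the knockout, and Kdr, a VEGF receptor gene, made up 29.2 and 29.4 TPM and 61.9 and 54.9 TPM of this. The part of such cells in the results was not tested. Of 134 tested genes within 5 Mb of Arid1a on chromosome 4, 15 rose and 12 fell (20.1% called, against 25% of all tested genes).

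The knockout effect at 4 hr was compared with that at 1 hr, which rests on other libraries of both genotypes. At 1 hr 2170 genes rose (18.4%) and 1985 fell (16.8%). Of the genes that rose at 4 hr, 835 had also risen at 1 hr (50.1% of the 4 hr list and 38.5% of the 1 hr list), and of those that fell at 4 hr, 657 had also fallen at 1 hr (51.3% and 33.1%). Across the 11798 genes, which are not independent replicates, the effects at both times had a Pearson r of 0.48 and a Spearman rho of 0.46. The test of the difference, 4 hr minus 1 hr, called 953 genes higher (8.08%) and 955 lower (8.09%). The total passing on the deposited TPM, 1982, was 951 without 1 hr control replicate 2, 1023 without 1 hr control replicate 1, 2545 without 1 hr knockout replicate 1 and 3426 without 1 hr knockout replicate 2.

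Opposite directions at the times were less common than shared ones. There were 87 genes that fell at 1 hr and rose at 4 hr, 5.22% of those risen at 4 hr. A further 74 rose at 1 hr and fell at 4 hr, 5.78% of those fallen at 4 hr. For shared directions these shares were 50.1% and 51.3%. Il12b stood at 3.02 and 2.32 TPM in the knockout against 34.8 and 32.4 TPM in controls at 1 hr, and its difference of effects was 3.77 ± 0.16 (adjusted p = 3.25e-06, limma). Il6 stood at 1.35 and 1.5 against 5.96 and 5.34 TPM at 1 hr (difference 2.10 ± 0.16, adjusted p = 8.71e-05), and Cd69 at 14.9 and 13.4 against 27.4 and 29.9 TPM (difference 2.84 ± 0.16). These 3 genes were thus lower in the knockout at the early time and higher at the late time. In the other direction, Nek6, a mitotic kinase gene, stood at 47.1 and 47 against 15.5 and 16.2 TPM at 1 hr and fell from 16.3 and 14.5 to 6.49 and 6.38 TPM at 4 hr (difference -2.65). Pla2g4a, the gene of a phospholipase that frees arachidonic acid, stood at 30.1 and 32.1 against 7.72 and 7.84 TPM at 1 hr and fell from 78.1 and 68.3 to 51.6 and 47.5 TPM at 4 hr (difference -2.42).

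**Figure D5:**
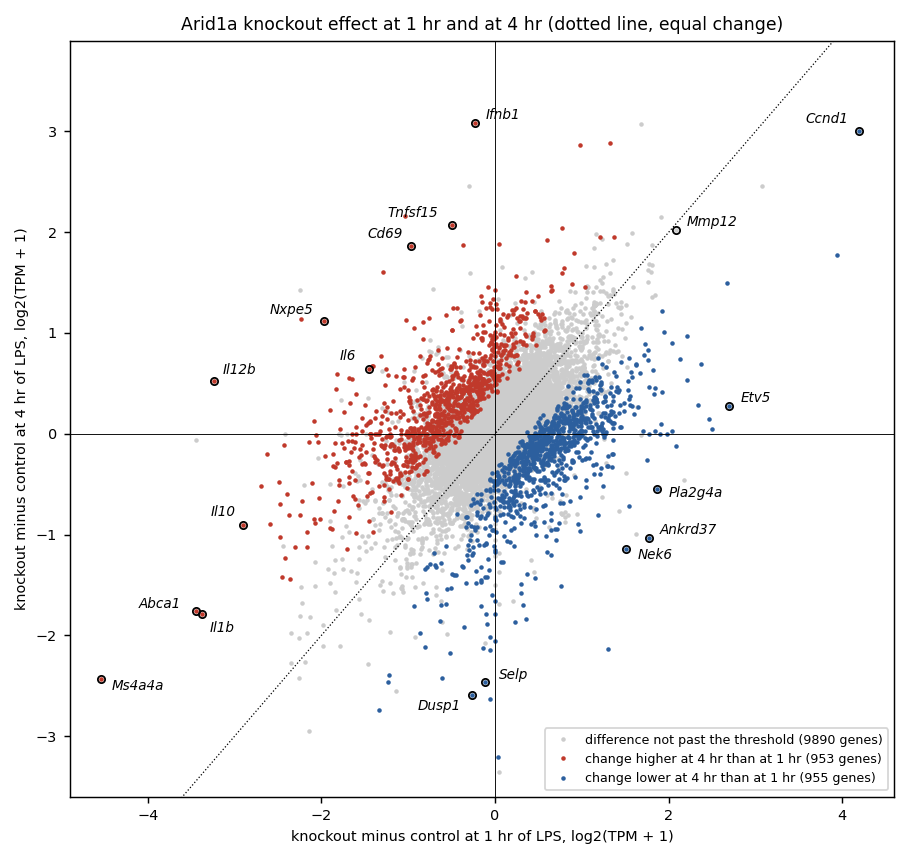
Log2 change at 1 hr (x axis) and at 4 hr (y axis), knockout minus control, of each tested gene, coloured where the difference between the times passed the test (953 genes higher at 4 hr in red, 955 lower in blue), with a dotted line of equal change. Il12b and Cd69 lie at the upper left, lower at 1 hr and higher at 4 hr, and Nek6 and Pla2g4a at the lower right.

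Gene lists differed between the times as well. For comparison, 18.4% of all tested genes rose and 16.8% fell at 1 hr. The difference was higher for 8.08% of all tested genes and lower for 8.09%. Of 30 primary NF-kB genes none rose and 17 fell at 1 hr, and the difference, 4 hr minus 1 hr, was higher for 11 and lower for 1. Of 42 interferon response genes 23 rose and 9 fell at 1 hr, and the difference was higher for 7 and lower for 22. Of 24 cholesterol synthesis genes 5 rose and 3 fell at 1 hr (median 0.10), and the difference was lower for 15 and higher for none. Of 28 cell cycle genes 16 rose and none fell at 1 hr, and the difference was higher for 4 and lower for 4.

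Genes were also grouped by their response to lipid A, another TLR4 ligand, in control cells of other experiments. Raised or lowered here means past the threshold with a change of at least 1 on the log2 scale. The 1 hr and 4 hr responses come from different experiments. Genes raised by less than 1 at 1 hr can therefore be among those counted as not raised by 1 hr. Of 540 genes raised by 1 hr of lipid A, 80 rose and 175 fell in the Arid1a knockout at 4 hr (14.8% and 32.4%, against 14.1% and 10.8% of all tested genes). Of 721 genes raised by 4 hr but not by 1 hr of lipid A, 72 rose and 140 fell (9.99% and 19.4%). Of 3702 genes lowered by 4 hr of lipid A, 657 rose and 339 fell (17.7% and 9.16%). In the knockout at 1 hr, 40 of the 540 early-raised genes rose and 316 fell, and of the 721 late-raised genes 174 rose and 133 fell. At that time 18.4% of all tested genes rose and 16.8% fell.

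Loss of Pbrm1, a subunit of PBAF, was measured at 4 hr of lipid A in another experiment with its own controls, and its values are given side by side. There 1 of 11044 tested genes passed in limma (0.00905%) and 1148 had an unadjusted p under 0.05. That fit held 6 libraries, against 10 in the Arid1a fit. Standard errors were larger there for Plau (0.62 against 0.32) and Ifnb1 (0.29 against 0.19), and smaller for Klf4 (0.20 against 0.29). The counts of calls in both knockouts therefore do not compare the sizes of their effects. Over the genes that rose in the Arid1a knockout the median log2 change in the Pbrm1 knockout was -0.18, over those that fell -0.09, and over all genes tested in both -0.12. Ifnb1 (0.12, adjusted p = 0.893), Plau (-1.22, adjusted p = 0.533) and Mt2 (0.91, adjusted p = 0.607) did not pass there. For 3 compounds at 4 hr of lipid A, 1 of the 2 control libraries was used, since 1 TPM column of that experiment matched no sample by name, and medians alone are given. For BRM014, an inhibitor of the SWI/SNF ATPases, the median was 0.73 over genes that rose in the Arid1a knockout and -0.05 over those that fell, against 0.45 over all. For ACBI1, a degrader of these ATPases and of PBRM1, the medians were 0.35 and 0.08 against 0.25, and for BRDK98, known here by its code name, 0.67 and -0.12 against 0.47.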

How the data were processed

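Reads of 50 bases from a stranded messenger RNA kit were aligned with STAR 2.5.3a to mm10 (GRCm38), and HOMER and DESeq2 were also used, per the submitters' processing notes. Per the file headers, HOMER counted exons on both strands and condensed them to 1 transcript per gene. The deposited values used here are TPM, and the authors' deposited comparison table gives log2 fold changes and adjusted p-values.

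Of 25124 genes, the 11798 with at least 1 TPM in at least 2 libraries were tested with limma 3.58.1 (R 4.3.3, trend and robust moderation) on log2(TPM + 1). All 10 libraries of the experiment, in 5 groups of 2, entered the fit (5 residual degrees of freedom), with Benjamini-Hochberg adjustment and a threshold of 0.05. The scripts were tested on simulated data. Low TPM values corresponded to whole reads in 100% of cases, within 0.1 read, which gave the depth and a voom fit. Replicate numbers were not used as pairs in the main fit. Across genes, the deviations of same-numbered libraries correlated at 0.145 between the 4 hr groups, the largest value, and at -0.088 to 0.059 elsewhere. With 1 deviation a group, this does not settle whether the libraries were paired. Alternatives were a pseudocount of 0.1, no filter, no trend or robust moderation, median-ratio scaling, the replicate block, voom, only the groups compared, a minimum change, and leaving out each library.

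Genes were named where they were SWI/SNF subunits, were among the 15 largest changes in each direction at 10 TPM or more with groups that did not overlap, were among the 4 largest in a list at 5 TPM or more, were 1 of 10 inflammatory reference genes, or had 1 of the 5 largest differences between times in each direction. Some of the list members that met these rules are given by counts only. Further members of lists and families, such as H2-K1, Tap2, Cd14 and Pcna, were named outside these rules after their values were seen. The comparison, lists and motifs were chosen with earlier results of these data known. Gene positions are from GENCODE on GRCm38, and 1 TPM column of another experiment matched no sample and was not used.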

Additional observations from a re-analysis of the deposited data

Results flagged for a closer look

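The knockout effect differed between 4 hr and 1 hr, by the test of the difference itself (limma, log2 scale, 4 hr minus 1 hr), for 21 of the genes named that also had a difference of at least 2. The difference was positive for Il12b (3.77), Mir7050 (3.38), Ifnb1 (3.32), Nxpe5 (3.09), Cd69 (2.84), Tnfsf15 (2.57), Serpinb2 (2.24), Ms4a4a (2.11), Il6 (2.10), Cxcl3 (2.09) and Il10 (2). It was negative for Nudt17 (-2.08), Gdf15 (-2.09), LTO1 (-2.17), Lcn2 (-2.19), Dusp1 (-2.33), Selp (-2.35), Etv5 (-2.42), Pla2g4a (-2.42), Nek6 (-2.65) and Ankrd37 (-2.80).

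Nxpe5 stood at 5.48 and 6.42 TPM in the knockout against 27.4 and 25 TPM in controls at 1 hr, and at 15.7 and 17.1 against 7.5 and 6.55 TPM at 4 hr. Etv5, a transcription factor gene, stood at 28.1 and 34.4 against 4.36 and 3.56 TPM at 1 hr, and at 2.23 and 2.13 against 1.77 and 1.48 TPM at 4 hr. Mir7050 lies within Fxyd5 and was listed at 0 in both knockout libraries at 1 hr. Its difference did not pass with voom (adjusted p = 0.0501) or without 4 hr knockout replicate 2, 1 hr control replicate 1, 1 hr control replicate 2 or 1 hr knockout replicate 1 (adjusted p from 0.0563 to 0.0725). The difference of Dusp1 did not pass when any 1 library of the 4 groups was left out (adjusted p from 0.0506 to 0.0719), except without 1 hr knockout replicate 2 (adjusted p = 0.0489). That of Nudt17 did not pass with a pseudocount of 0.1 (adjusted p = 0.0552).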

How the results depend on the processing

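With 2 libraries a group, each left-out library leaves a lone sample that is assumed to vary like the others. The 2057 higher and 1280 lower genes at 4 hr became 1240 to 1427 and 773 to 919 when 1 library was left out, and the 1982 genes differing between the times became 951 to 3426. A minimum change of 1 on the log2 scale left 265, 210 and 562. The replicate block gave 1974, 1254 and 1759 and changed no call of a named gene but that of Plk1, which passed with it (adjusted p = 0.0428). Across the other settings the counts ran from 1537 (voom) to 2308 (only the groups compared), from 1187 (no filter) to 1826 (median scaling), and from 1634 (only the groups compared) to 2057 (median scaling). Of 125 named genes past the threshold on the deposited TPM 113 kept their direction and stayed past it under every alternative run on single genes (all but the minimum change, and leaving out 4 hr libraries only), and 12 did not: Ccnb1, Smarcc1, Actl6a, Bcl7b, Bcl7c, Il6, Il12b, Il10, Nos2, Cxcl3, Cxcl1 and Atf4. Of the genes that did not pass, Cdc20 ran from -0.36 to 0.11 and Bst2 from -0.31 to 0.088 with 1 library left out, changing sign without 4 hr control replicate 2 and without 4 hr knockout replicate 1. The cause was not tested. Changes of genes near 1 TPM are understated by the pseudocount.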

Other observations

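Families were taken by gene symbol alone, so a member need not share the function its family is named for. Some families named for making protein had more risen members than the 14.1% of all tested genes in the Arid1a knockout at 4 hr. Others did not. Of 18 cytosolic aminoacyl-tRNA synthetase genes, whose enzymes charge tRNAs, 12 rose and none fell (median log2 change 0.58, against 0.05 over all tested genes). Sars went from 14.9 and 15.4 to 29.3 and 31.1 TPM (0.95) and Gars from 33 and 29.5 to 62.2 and 57.6 TPM (0.92). Of 8 subunits of the chaperonin that folds actin and tubulin, 4 rose and none fell, with Cct2 going from 71.6 and 68.2 to 111 and 104 TPM (0.61). Of 45 genes with symbols of ribosome biogenesis factors 9 rose and 2 fell at 4 hr, Nol4l (-0.81) being 1 of the fallen. At 1 hr 33 rose and 1 fell, against 18.4% and 16.8% of all tested genes. The difference between the times was lower for 18 and higher for none, against 8.09% and 8.08% of all tested genes. Among the 45, Npm1, a nucleolar protein gene, rose at 4 hr from 38 and 36.9 to 59.8 and 64.5 TPM (0.71). Ncl rose from 31.1 and 29.5 to 54 and 50.8 TPM (0.77). Of 76 mitochondrial ribosomal protein genes 10 rose and 2 fell (median 0.20), and of 74 cytosolic ribosomal protein genes none rose and 3 fell. Of 53 genes with symbols of translation initiation factors 10 rose, Eif4ebp1 (0.56) among them, and 1 fell (median 0.10).

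Of all tested genes 14.1% rose and 10.8% fell at 4 hr, and 18.4% rose and 16.8% fell at 1 hr. Both metallothionein genes tested fell, Mt1 going from 584 and 751 to 145 and 229 TPM (-1.85). Of 7 membrane-spanning 4-domain genes 5 fell and none rose at 4 hr, against 6 and none at 1 hr. Of 17 C-type lectin genes 5 fell and 2 rose at 4 hr, against 12 and 1 at 1 hr, and the difference was higher for 7 and lower for none. Clec4a3 fell from 62.9 and 56.7 to 30.9 and 30.8 TPM (-0.93) and Clec12a from 412 and 365 to 267 and 254 TPM (-0.57), while Clec5a, an activating receptor gene of myeloid cells, rose from 24.9 and 22.3 to 43 and 46 TPM (0.89). Other lists moved both ways: of 17 p53 target genes 3 rose and 4 fell, of 13 heat shock genes 5 and 5, of 24 matrix and adhesion genes 7 and 5, and of 21 lysosome genes 6 and 6. The families, taken by gene symbol alone, were chosen after the values were seen.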
